A study of Rattus norvegicus with 28 samples.

Results

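The late transcriptional response of INS-1 cells to the GLP-1 receptor agonist exendin-4 (Ex-4) is described here from 4 of the 28 RNA-seq libraries of the series: 2 of wild-type (WT) cells exposed to 10 nM Ex-4 for 16 h and 2 of WT control cells (CON). The libraries were taken by their group labels. INS-1 is a rat insulinoma line that makes insulin, and no other tissue or animal entered the experiment. All groups, CON included, had been washed into serum-free medium before treatment and ERCC spike-in RNA was added per mass of total RNA. Where the response is set against other libraries of the series, those are WT cells after 1 or 8 h of 10 nM Ex-4, WT cells after 16 h of 10 µM forskolin (FSK, which activates adenylyl cyclase directly), and cells with a CRISPR knock-in that turns a serine of the Mediator subunit Med14 into alanine (S983A), as CON or after 16 h of 10 nM Ex-4. The knock-in cells were grown from single cells, the study made 2 independent lines of them, and the labels do not say which line gave which library. The labels also do not say that the 2 libraries of a group came from separate cultures, so p-values measure only the spread between these libraries, which may be technical.

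Ex-4 is a stable peptide that binds the GLP-1 receptor of the beta cell. The receptor raises cAMP through the stimulatory G protein, cAMP activates protein kinase A, and the kinase phosphorylates CREB, which binds cAMP response elements (CRE) in promoters and first induces short-lived regulators and feedback inhibitors. Sustained cAMP is known for a later programme in which the cell builds secretory capacity: the endoplasmic reticulum (ER) folds, modifies and exports proinsulin under the control of the unfolded protein response, and sterol synthesis is set by the SREBP factors, which Insig proteins hold in the ER while sterol is plentiful.

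The 4 libraries held 42551133 to 56171844 fragments assigned to transcripts, and 10157 to 10249 genes reached 1 TPM (a share of the library per transcript length) in each. At these depths 1 fragment on a transcript of 2000 bases was worth 0.0155 to 0.0211 TPM, and this covers counting error only. ERCC RNA took 0.908% ± 0.0630 of fragments in CON and 0.744% ± 0.0128 at 16 h (SD, n = 2 each). Of the 10 beta cell markers, Ins1, Ins2, Iapp, Pdx1, Nkx6-1, Slc2a2 and Slc30a8 were tested, Ucn3 lay at 0.0330 to 0.467 TPM, and Mafa and G6pc2 were not analysed here. Of the markers of other cells, those under the level for testing were mostly near 0: Irx1, Irx2 and Ttr of alpha cells did not exceed 0.200 TPM, 10 acinar markers did not exceed 0.176 TPM, Sst, Hhex and Rbp4 of delta cells did not exceed 0.152 TPM, and Ppy and Meis2 of PP cells did not exceed 0.0720 TPM. The 5 leukocyte markers reached up to 0.958 TPM, close to the level for testing. The 1 duct, fibroblast and endothelial marker each that was tested, Sox9, Pdgfra and Kdr, measured 1.04, 1.34 and 0.808 TPM at 16 h and was not called. Kdr is also a gene that the study reports as induced by Ex-4 in INS-1 cells. It was called lower at 16 h than at 8 h (log2 −2.04), so its level does not speak for endothelial cells here. Other tested markers were well above 0. Of 3 alpha cell markers 1 was called higher, Gcg, and 1 lower, on all 3 scales, while Gc measured 1133 TPM in CON and 1091 TPM at 16 h and was not called. The PP cell marker Etv1 was called higher, from 89.0 to 146 TPM. The delta cell marker Pcsk1, a granule convertase that beta cells also make, averaged 99.8 and 73.7 TPM and was not called. Of 2 acinar markers tested, both were called higher, Ctrb1 among them. The part of other cell types in the response was not tested. In bulk RNA, fewer cells of a type and less RNA per cell cannot be told apart.

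After 16 h of Ex-4, 363 of 10275 tested genes (3.53%) were called higher and 851 (8.28%) lower than in CON. A call needed an adjusted p (padj) under 0.05 in limma on log2(TPM + 1) and a change above 1.5-fold. Below, values of single libraries are TPM, means are given ± SD (n = 2), and log2 differences are given with or ± their SE. Of the calls, 107 rises and 166 falls were above 2-fold, and 12 rises and 7 falls above 4-fold. Genes called higher had a median transcript length of 1981 bases and a median level of 32.7 TPM, and genes called lower 2470 bases and 17.3 TPM, against 2126 bases and 29.8 TPM for genes without a call. TPM is a share of each library, and the genes called higher gained 55123 TPM in sum while the sum of those called lower fell by 19700 TPM and that of the uncalled tested genes fell by 34369 TPM. The median log2 difference of all tested genes was −0.16, and changes below are to be read against it.

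The balance of rises and falls depended on the scale. With libraries scaled to the ERCC RNA the median was 0.15, and 1002 genes were called higher and 268 lower. With each library centred on its median gene the median was 0.03, and 665 genes were called higher and 407 lower. Tests on the recovered fragment counts gave 668 higher and 633 lower (edgeR), 726 and 583 (DESeq2) and 1134 and 363 (DESeq2 with ERCC size factors). All 363 genes called higher were also called higher with ERCC scaling and with median-centring, so a rise given below held on all 3 scales. Both other scales shift the differences upward, so a called rise could hardly be lost on them. That it held is therefore no separate support for it. Of the 851 falls, 268 were also called with ERCC scaling, and 407 with median-centring, so it is said beside each fall where the call was lost.

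**Figure D1:**
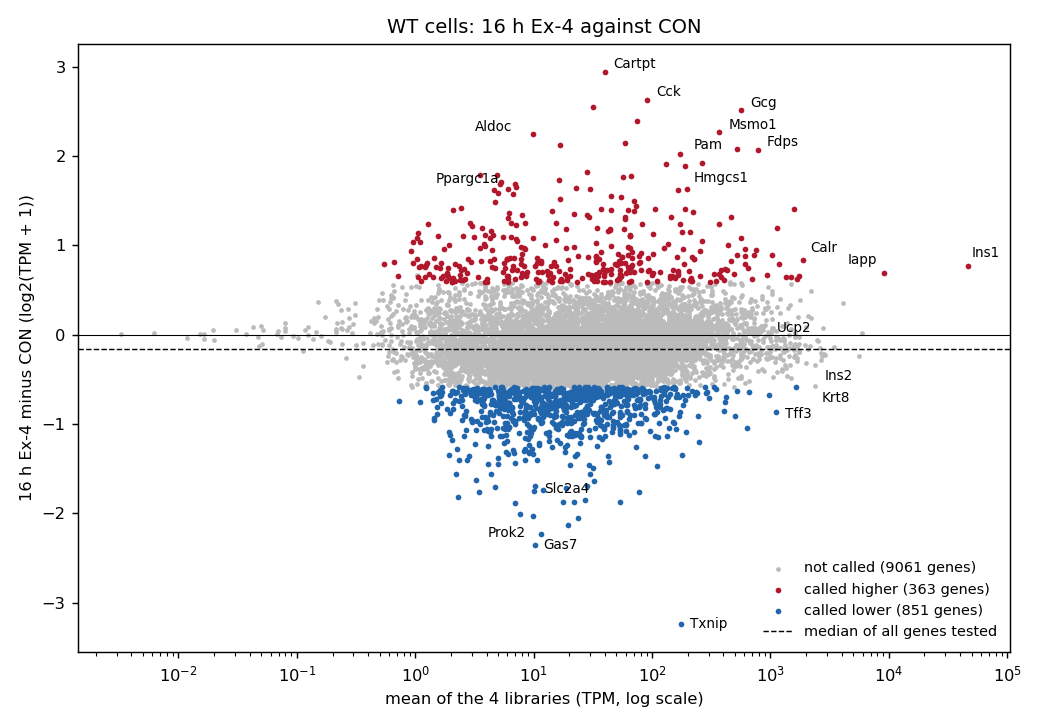
Log2 difference of each tested gene between WT cells after 16 h of Ex-4 and WT CON (vertical axis, log2(TPM + 1) scale) against its mean level over the 4 libraries (horizontal axis, TPM, log scale), with genes called higher and lower in colour and uncalled genes in grey. The 363 genes called higher include Cartpt, Cck, Gcg and sterol genes at more than 4-fold, the 851 called lower extend to Txnip at −3.24, and the bulk of the genes lies slightly under 0, at a median of −0.16.

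Genes for secreted peptides had the largest rises. Cartpt, which encodes the neuropeptide precursor CART, measured 7.71 and 9.07 TPM in CON and 71.0 and 71.2 TPM at 16 h, 8.47-fold higher (log2 difference 2.94, SE 0.071, padj 8.49e-21). Cck, the cholecystokinin precursor, measured 24.1 and 25.5 TPM in CON and 158 and 158 TPM at 16 h (log2 difference 2.63, SE 0.051, padj 1.39e-22). Neither gene had overlapping groups, but neither did 84.1% of all tested genes, so a lack of overlap says little here. Gcg, the proglucagon gene, measured 165 and 169 TPM in CON and 947 and 966 TPM at 16 h (log2 difference 2.51, SE 0.068, padj 1.03e-19). The alpha cell factors Irx1 and Irx2 stayed at or near 0 in these libraries. Vgf, a granule peptide precursor, measured 367 and 359.7 TPM in CON and 746 and 796 TPM at 16 h (log2 difference 1.08, SE 0.067, padj 8.90e-13). Gast and Nucb2, the gastrin and nesfatin precursors, also rose, by 1.74 ± 0.063 and 0.88 ± 0.048 on the log2 scale, and Tac1, the substance P precursor, by 0.70 ± 0.093. Of the 26 neuropeptide and gut hormone genes listed, only 10 reached the level for testing, 5 of them were called higher and none lower, and their median was 0.46 beside −0.16 for all genes.

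A digestive enzyme gene and genes of vesicle and other secreted proteins rose as well. Ctrb1, the chymotrypsinogen gene, measured 5.53 and 4.93 TPM in CON and 8.97 and 8.21 TPM at 16 h (log2 difference 0.62, SE 0.15, padj 7.30e-04), while the 10 acinar markers given above stayed near 0 in both groups. Tmem163, a zinc-binding membrane protein of vesicles, measured 20.6 and 21.6 TPM in CON and 95.2 and 98.8 TPM at 16 h (log2 difference 2.15, SE 0.041, padj 1.03e-22). Stc1, the secreted glycoprotein stanniocalcin-1, measured 11.5 and 11.96 TPM in CON and 42.2 and 46.1 TPM at 16 h (log2 difference 1.83, SE 0.066, padj 2.99e-17). The uncharacterised LOC691995 measured 6.10 and 5.20 TPM in CON and 29.5 and 26.2 TPM at 16 h (log2 difference 2.12, SE 0.13, padj 1.11e-12). In each of these 4 genes both 16 h libraries lay above both CON libraries, but 84.1% of all tested genes had no overlap either.

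The palindromic CRE, TGACGTCA, lies in the promoter window (250 bases before to 50 after the RefSeq start) of some of these genes. It is shown in capitals for 4 genes of the cAMP response, 5′ to 3′ on the gene's strand in assembly GRCr8, because Cartpt and Vgf were among the risen peptide genes and Crem and Ppargc1a are known CREB targets that were also higher at 16 h.
Cartpt, chr2:32991358-32991389 (−): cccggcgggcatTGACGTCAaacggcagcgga
Vgf, chr12:25277091-25277122 (−): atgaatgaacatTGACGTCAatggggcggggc
Crem, chr17:58984729-58984760 (+): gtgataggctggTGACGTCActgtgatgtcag
Ppargc1a, chr14:63634115-63634146 (+): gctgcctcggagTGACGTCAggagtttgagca

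The first base of each stretch lies 154, 102, 68 and 193 bases upstream of the start. Searched on both strands, the element was in 3.99% of the 276 windows of genes called higher, 3.94% of the 686 windows of genes called lower and 3.48% of the 8421 windows of all tested genes that have one (2.00% of 27457 windows in the whole reference). The AP-1 element, TGANTCA, was in 6.88% of windows of genes called higher, 3.50% of those called lower and 4.76% of all.

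**Figure D2:**
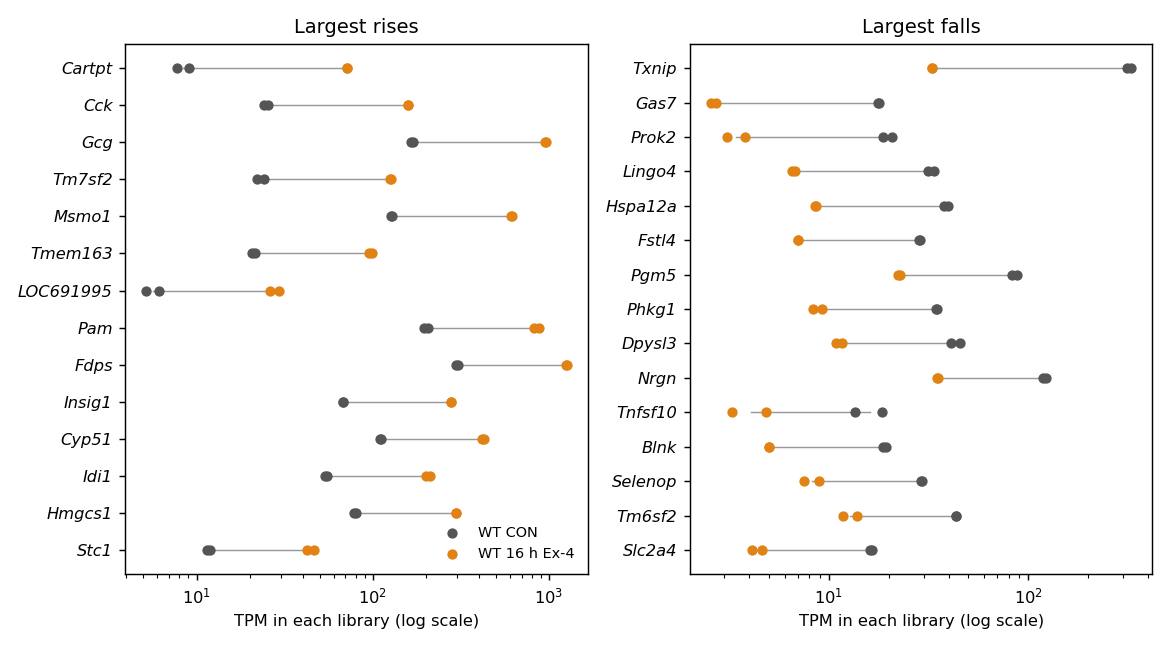
TPM in each library (horizontal, log axis) for 14 of the 15 genes with the largest rise (left) and the 15 with the largest fall (right) among those above 10 TPM, with grey points for the 2 WT CON and orange points for the 2 WT 16 h Ex-4 libraries and a line joining the group means. The 2 libraries of a group lie close together in most genes, with Tnfsf10 the widest. No gene shown has overlapping groups, and neither have 84.1% of all tested genes.

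The pathway with the most complete rise was cholesterol synthesis. Of its 20 enzymes 19 were called higher and none lower, at a median log2 difference of 1.34, and the uncalled enzyme, Pmvk (phosphomevalonate kinase), measured 68.9 and 72.0 TPM in CON and 99.8 and 95.3 TPM at 16 h (log2 difference 0.46, SE 0.050, padj 1.44e-08). With ERCC scaling or median-centring all 20 were called. Summed over the 20 genes, the level was 1534 and 1497 TPM in CON and 4596 and 4646 TPM at 16 h.

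The rise ran from the first steps to the last. Hmgcs1, the HMG-CoA synthase, measured 80.8 and 78.6 TPM in CON and 298 and 297 TPM at 16 h (log2 difference 1.89, SE 0.054, padj 3.63e-19). Idi1, which isomerises the isoprenoid unit, measured 54.9 and 53.3 TPM in CON and 212 and 200.1 TPM at 16 h (log2 difference 1.91, SE 0.055, padj 3.66e-19). Fdps makes farnesyl pyrophosphate, the branch point to sterols and prenyl groups, and was the most abundant enzyme of the list, with 296 and 303 TPM in CON and 1252 and 1266 TPM at 16 h (log2 difference 2.07, SE 0.030, padj 3.88e-25). All 3 of these enzymes had their 16 h libraries clear of CON, as had 84.1% of all tested genes. Past Fdps, Sqle, the squalene epoxidase, measured 124 and 122 TPM in CON and 317 and 327 TPM at 16 h (log2 difference 1.38, SE 0.050, padj 3.03e-17). Cyp51, which removes a methyl group from lanosterol, measured 111 and 109.9 TPM in CON and 416 and 426 TPM at 16 h (log2 difference 1.92, SE 0.049, padj 2.73e-20). The reductase Tm7sf2 had the largest change of the list (24.2 and 22.1 TPM in CON and 127 and 125 TPM at 16 h, log2 difference 2.40, SE 0.049, padj 3.06e-22). The C4-demethylating oxidase Msmo1 came next (128 and 126 TPM in CON and 610.3 and 619.8 TPM at 16 h, log2 difference 2.26, SE 0.051, padj 2.33e-21). The late reductase Dhcr7 rose by 1.02 ± 0.042.

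Sterol uptake and sensing moved in part. Insig1, which retains SREBP in the ER and is itself an SREBP target, measured 67.7 and 67.9 TPM in CON and 279 and 277 TPM at 16 h (log2 difference 2.02, SE 0.043, padj 9.66e-22). The cholesterol carrier Stard4 rose by 0.85 ± 0.086. Abca1, the cholesterol exporter, fell (50.4 and 46.1 TPM in CON and 18.3 and 21.2 TPM at 16 h, log2 difference −1.25, SE 0.088, padj 8.32e-12), with ERCC scaling and with median-centring as well. Of the 17 tested genes of uptake, sensing and export, 4 were called higher and 2 lower (median 0.30), with 9 higher and 1 lower under ERCC scaling. Srebf2, the gene of the sterol-responsive SREBP, measured 98.5 and 93.7 TPM in CON and 138 and 146 TPM at 16 h (log2 difference 0.56, SE 0.048, padj 3.41e-10). Srebf1, which acts more on fatty acid genes, measured 61.7 and 56.3 TPM in CON and 78.5 and 81.3 TPM at 16 h (log2 difference 0.43, SE 0.043, padj 4.56e-09). Both fell short of the 1.5-fold threshold.

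Fatty acid genes rose less uniformly: 5 of 16 tested genes of synthesis and activation were called higher and none lower (median 0.38, 10 with ERCC scaling and 7 with median-centring). Acss2, the cytosolic acetyl-CoA synthetase, measured 30.2 and 29.0 TPM in CON and 103 and 105 TPM at 16 h (log2 difference 1.78, SE 0.045, padj 2.73e-20). The desaturases Fads1 and Fads2 rose by 1.24 ± 0.038 and 0.67 ± 0.048, and Scd2, the stearoyl-CoA desaturase, measured 698 and 674 TPM in CON and 1554 and 1583 TPM at 16 h (log2 difference 1.19, SE 0.049, padj 3.12e-16). Fasn and Acaca, the core enzymes of fatty acid synthesis, had log2 differences of 0.30 and −0.47 and were not called. Of 18 tested genes of fatty acid oxidation none was called higher and 1 lower, Cpt2 (−0.73 ± 0.052), whose call was lost with ERCC scaling and with median-centring, and the median was −0.14.

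Promoter stretches of 4 sterol enzymes are shown with their CCAAT boxes, where the factor NF-Y binds, in capitals (ATTGG on the opposite strand), because these genes rose together. This letter string was added to the search after the data had been seen.
Hmgcs1, chr2:53382104-53382187 (+): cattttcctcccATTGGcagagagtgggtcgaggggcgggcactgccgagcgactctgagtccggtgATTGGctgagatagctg
Fdps, chr2:176804885-176804958 (−): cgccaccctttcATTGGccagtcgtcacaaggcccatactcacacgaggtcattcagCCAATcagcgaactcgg
Idi1, chr17:66547543-66547602 (−): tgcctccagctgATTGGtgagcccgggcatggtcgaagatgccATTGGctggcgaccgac
Msmo1, chr16:29746928-29747061 (+): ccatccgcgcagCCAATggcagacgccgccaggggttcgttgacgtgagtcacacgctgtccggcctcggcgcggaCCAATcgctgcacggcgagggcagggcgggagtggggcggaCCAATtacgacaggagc

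CCAAT stood in 80.0% of the 15 windows of cholesterol enzymes, 77.3% of the 22 windows of ER chaperones and 72.7% of the 11 windows of the Txnip list, against 38.5% of all tested genes with a window and 39.6% of the reference. The shares among all genes called higher and lower were 42.8% and 44.5%. A sterol response element in the spelling TCACNCCAC was in none of the 15 windows and in 1.06% of all, which says only that these letters are not in these windows.

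Genes of protein folding in the ER rose as the next most complete group. Of 26 tested chaperones and oxidoreductases, 16 were called higher and none lower (median 0.64, 23 with ERCC scaling and 20 with median-centring), and their summed level was 9442 and 9395 TPM in CON and 14748 and 15072 TPM at 16 h. Calr, the lectin chaperone calreticulin, measured 1365 and 1359 TPM in CON and 2409 and 2469 TPM at 16 h (log2 difference 0.84, SE 0.039, padj 4.22e-15). Hspa5, the chaperone BiP, measured 1051 and 1041 TPM in CON and 1622 and 1656 TPM at 16 h (log2 difference 0.65, SE 0.046, padj 9.44e-12). Hsp90b1, the ER Hsp90, measured 1312 and 1306 TPM in CON and 1985 and 2061 TPM at 16 h (log2 difference 0.63, SE 0.051, padj 1.10e-10). In all 3, both 16 h libraries lay above both CON libraries, but 84.1% of all tested genes had no overlap either. Sdf2l1 had the largest change of the list, with 50.1 and 46.4 TPM in CON and 114 and 116 TPM at 16 h (log2 difference 1.24, SE 0.048, padj 9.34e-17). The BiP co-chaperones Dnajb9 and Dnajc3 rose by 0.92 ± 0.079 and 0.89 ± 0.063, and Manf, a secreted ER stress protein, by 0.86 ± 0.050.

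The ER stress element, CCAAT, 9 bases and CCACG, is the site through which ATF6 and NF-Y act on such genes. It is shown in capitals (on the opposite strand it reads CGTGG, 9 bases, ATTGG) in the promoters of 5 chaperones and of Xbp1, because its share among chaperone windows was far above that among all windows.
Hspa5, chr3:38452961-38453003 (+): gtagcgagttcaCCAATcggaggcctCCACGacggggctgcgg
Hsp90b1, chr7:23012335-23012481 (−): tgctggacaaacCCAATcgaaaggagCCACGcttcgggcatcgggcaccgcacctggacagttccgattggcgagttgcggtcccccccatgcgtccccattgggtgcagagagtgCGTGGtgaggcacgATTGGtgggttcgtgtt
Calr, chr19:40213123-40213165 (+): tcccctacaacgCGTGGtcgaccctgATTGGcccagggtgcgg
Canx, chr10:35158057-35158099 (−): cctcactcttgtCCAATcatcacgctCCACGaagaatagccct
Dnajc3, chr15:102432522-102432564 (+): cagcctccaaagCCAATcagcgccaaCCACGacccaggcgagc
Xbp1, chr14:84604546-84604588 (+): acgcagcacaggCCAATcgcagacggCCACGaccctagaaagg

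The element was in 31.8% of 22 chaperone windows, 1.81% of the windows of genes called higher, 0.146% of those of genes called lower, 0.178% of all tested genes with a window and 0.0765% of the reference. A match of letters is a description and does not show that the site was used. Canx, the membrane-bound relative of calreticulin, carries the element, measured 408 and 401 TPM in CON and 538 and 550.5 TPM at 16 h and was not called (log2 difference 0.43, SE 0.053, padj 1.71e-07). Creld2 and Ero1b of the same list, not shown, carry it too and were not called (log2 differences 0.51 and −0.52).

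The regulators of the unfolded protein response rose in smaller number: 5 of 17 were called higher and none lower (median 0.40, 12 with ERCC scaling and 9 with median-centring). Xbp1, the transcription factor spliced by IRE1, measured 170.4 and 162 TPM in CON and 250.2 and 259.9 TPM at 16 h (log2 difference 0.62, SE 0.040, padj 1.74e-12), and its call was lost without CON replicate 2 (log2 difference 0.58). Trib3, a pseudokinase induced by ER and amino acid stress, measured 1.597 and 2.30 TPM in CON and 8.32 and 8.81 TPM at 16 h (log2 difference 1.71, SE 0.094, padj 8.83e-14). Chac1, a glutathione-degrading enzyme, measured 3.04 and 2.65 TPM in CON and 11.2 and 9.77 TPM at 16 h (log2 difference 1.58, SE 0.087, padj 1.00e-13). Trib3 and Chac1 are low-level genes, and the larger amounts of RNA belonged to the transcription factors. Atf4, which drives the amino acid arm, measured 271 and 277 TPM in CON and 409 and 421 TPM at 16 h (log2 difference 0.60, SE 0.050, padj 1.81e-10), a call lost without CON replicate 1 (0.5808) or 16 h replicate 2 (0.5734), and Ddit3, the factor CHOP, rose by 0.69 ± 0.061. Of 21 ATF4 targets and amino acid supply genes, 4 were called higher and 1 lower, Shmt1, which was not called with ERCC scaling (median 0.19). None of the 10 tested cytosolic tRNA synthetases was called (median 0.046).

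The steps before and after folding rose by smaller amounts. In translocation into the ER, 5 of 22 genes were called higher (median 0.33), led by Sec61b, a channel subunit, with 478 and 492 TPM in CON and 831 and 792 TPM at 16 h (log2 difference 0.74, SE 0.038, padj 2.42e-14), and Ssr4 (0.72 ± 0.035). In N-glycosylation 4 of 29 were called higher (median 0.28), among them the oligosaccharyltransferase subunits Ostc (1.00 ± 0.043) and Ddost (0.68 ± 0.038). In transport from ER to Golgi 7 of 37 were called higher (median 0.29). Kdelr3, a receptor that returns ER proteins from the Golgi, led this list with 8.34 and 7.85 TPM in CON and 23.8 and 26.2 TPM at 16 h (log2 difference 1.51, SE 0.062, padj 3.04e-16), and the cargo receptors Tmed3, Lman1 and Surf4 rose by 1.13 ± 0.043, 0.72 ± 0.056 and 0.71 ± 0.059. In ER-associated degradation 3 of 18 were called higher (median 0.17), with Selenos at 0.72 ± 0.040. No gene of these 4 lists was called lower. With ERCC scaling their counts of rises became 13, 16, 23 and 5, in the same order, and with median-centring 9, 12, 12 and 4.

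Insulin and granule genes held a large part of the gain of TPM, of which Ins1 alone took 24159 TPM. Ins1 measured 34501 and 33716 TPM in CON and 58758 and 57777 TPM at 16 h (log2 difference 0.77, SE 0.055, padj 9.70e-12). Ins2 measured 2885 and 2991 TPM in CON and 2463 and 2359 TPM at 16 h and was not called (log2 difference −0.29, SE 0.057, padj 1.09e-04), and its direction turned with ERCC scaling (log2 0.049). The insulin genes are near-identical, so how reads were split between them is uncertain. Their sum was 37386 and 36707 TPM in CON and 61221 and 60136 TPM at 16 h, or 3.74% and 3.67% of all TPM against 6.12% and 6.01%. Iapp, amylin, which is secreted with insulin, measured 7007 and 6973 TPM in CON and 11417 and 11171 TPM at 16 h (log2 difference 0.69, SE 0.045, padj 1.97e-12).

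Among processing enzymes, Pam, which amidates peptide hormones, rose 4.24-fold, from 207 and 195 TPM in CON to 825 and 876 TPM (log2 difference 2.08, SE 0.045, padj 1.18e-21). Pcsk2, a proinsulin convertase, measured 748 and 693 TPM in CON and 1318 and 1357 TPM at 16 h (log2 difference 0.89, SE 0.035, padj 1.18e-16). Pcsk1, the other convertase, measured 103 and 96.8 TPM in CON and 73.9 and 73.5 TPM at 16 h (log2 difference −0.43, SE 0.060, padj 9.25e-07) and was not called. Ptprn, a granule membrane protein, rose by 1.31 ± 0.043 and Chgb, a granin, by 0.65 ± 0.055. Of 17 tested granule genes 8 were called higher and none lower (median 0.33, 9 with ERCC scaling and 8 with median-centring). Gnas, the G protein alpha subunit that couples the GLP-1 receptor to adenylyl cyclase, was among the 10 largest gains of TPM with 3548 and 3622 TPM in CON and 4545 and 4603 TPM at 16 h (log2 difference 0.35, SE 0.054, padj 3.96e-06), but was called only with ERCC scaling.

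Calls among exocytosis and ion channel genes are to be read beside those of all tested genes, 3.53% higher and 8.28% lower. Whether either list departs from these shares was not tested. Of 27 exocytosis genes 2 were called higher, the vesicle GTPase Rab3a (1.05 ± 0.038) and the membrane SNARE Snap25, and 1 was called lower on all 3 scales, the calcium sensor Syt9 (−0.97 ± 0.077), at a median of −0.044. Snap25 measured 157 and 153 TPM in CON and 256 and 256 TPM at 16 h (log2 difference 0.72, SE 0.050, padj 6.70e-12). Of 25 ion channel genes 1 was called higher and 3 lower (median −0.20). Kcnk3, a background potassium channel, measured 17.8 and 16.9 TPM in CON and 8.78 and 10.2 TPM at 16 h (log2 difference −0.81, SE 0.080, padj 4.37e-09), a fall not called with ERCC scaling. Cacna1a, a calcium channel subunit, and Kcnb2, a delayed rectifier potassium channel, had log2 differences of −0.68 ± 0.067 and −0.68 ± 0.085, neither of them called with ERCC scaling or median-centring, and the call of Kcnb2 was also lost without 16 h replicate 1 (−0.54).

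Identity factors of the beta cell had a median of −0.11, with 1 of 19 called higher, Etv1 (0.70 ± 0.047), which is also the PP cell marker given above. Called lower were 2, among them Rfx6 (−0.60 ± 0.067, lost with both other scalings). The shares, 5.26% higher and 10.5% lower, stood beside 3.53% and 8.28% of all tested genes. Pdx1, which activates the insulin gene, measured 292 and 291 TPM in CON and 249 and 258 TPM at 16 h (log2 difference −0.20, SE 0.039, padj 9.42e-05). Nkx6-1, a factor of beta cell identity, measured 51.4 and 53.0 TPM in CON and 50.7 and 53.0 TPM at 16 h (log2 difference −0.0082, SE 0.066, padj 0.918). Neither was called. Among the incretin receptors, cyclases and desensitization genes none of 18 was called higher and 2 were called lower (median −0.24, 1 with either other scaling). These 2 are 11.1% of the list, beside 8.28% of all tested genes. Glp1r, the receptor of Ex-4, measured 95.4 and 89.8 TPM in CON and 99.95 and 104 TPM at 16 h (log2 difference 0.14, SE 0.038, padj 0.00211), not called. Adcy1, an adenylyl cyclase, measured 5.49 and 4.51 TPM in CON and 2.11 and 1.87 TPM at 16 h and was called on all 3 scales, while the call of Arrb2, an arrestin that desensitizes receptors (−0.64 ± 0.048), was lost with both.

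**Figure D3:**
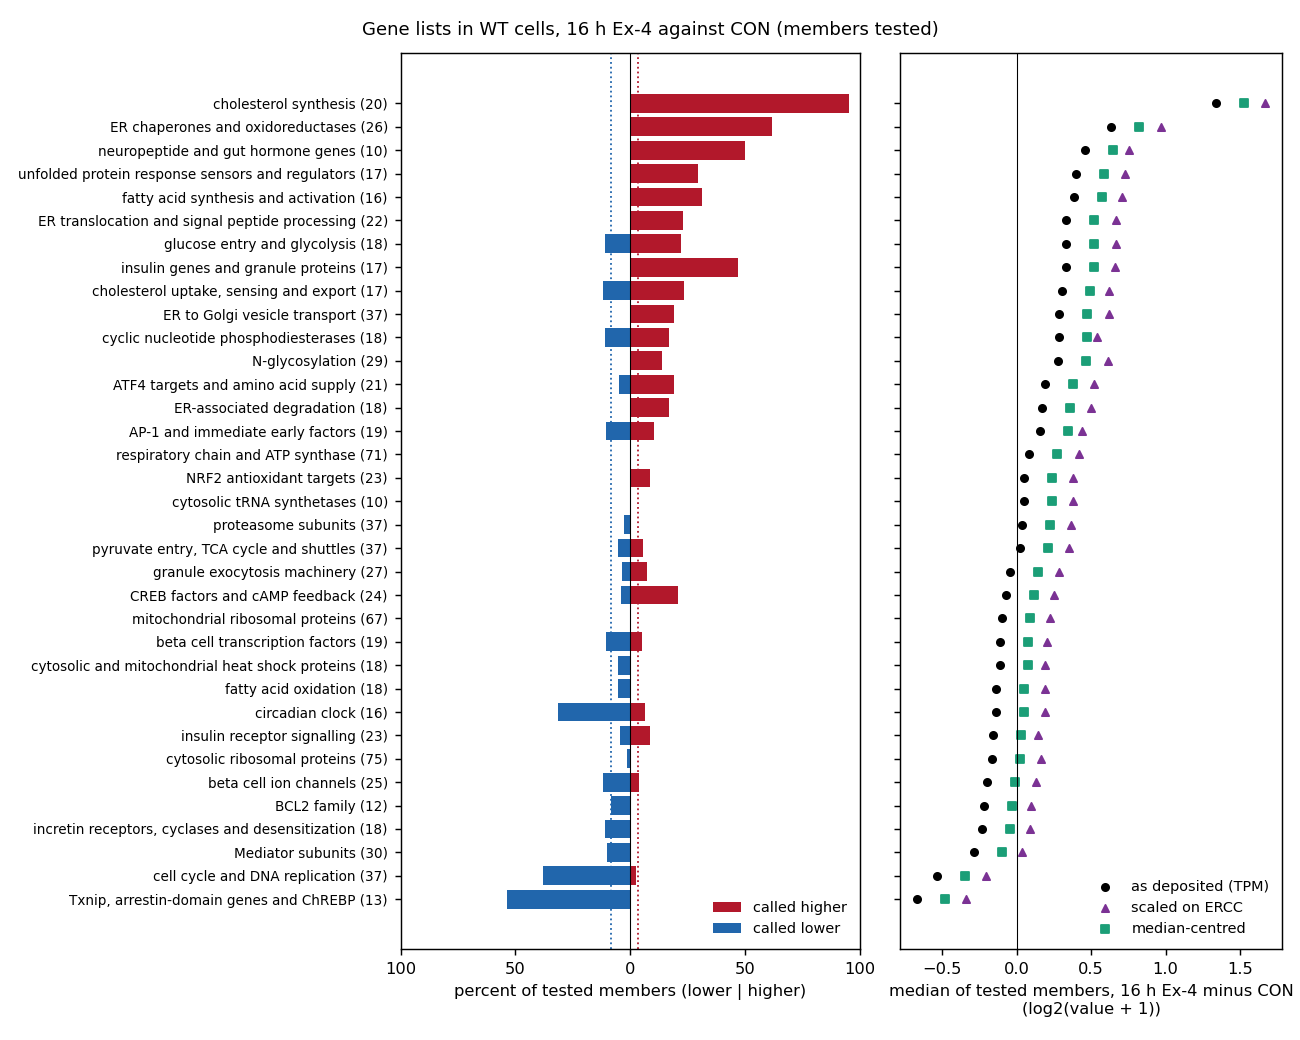
Left, percent of the tested members of each gene list (their number in brackets) that were called higher (red, to the right) or lower (blue, to the left) at 16 h of Ex-4 against CON, with dotted lines at the shares of all tested genes, 3.53% and 8.28%. Right, the median log2 difference of each list as deposited (circles), scaled on ERCC (triangles) and median-centred (squares). Cholesterol synthesis leads at 95.0% higher and a median of 1.34, and the Txnip list is last at 53.8% lower and a median of −0.67.

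Glucose metabolism changed in a few enzymes. Aldoa, a glycolytic aldolase, measured 851 and 881 TPM in CON and 2264 and 2315 TPM at 16 h (log2 difference 1.40, SE 0.046, padj 5.00e-18). Aldoc, its brain-type relative, measured 2.79 ± 0.0297 TPM in CON and 16.9 ± 0.132 TPM at 16 h (log2 difference 2.24, SE 0.083, padj 4.77e-17). Both aldolases rose, from levels far apart. Pfkfb3, which makes the activator of phosphofructokinase, fell (8.26 and 7.56 TPM in CON and 3.14 and 3.87 TPM at 16 h, log2 difference −0.99, SE 0.097, padj 3.62e-09), on all 3 scales. Slc2a2, the glucose transporter GLUT2, had a log2 difference of −0.76 ± 0.050, and its call was lost with ERCC scaling and with median-centring. Gapdh, often used as a reference gene, measured 1832 and 1841 TPM in CON and 2560.1 and 2581 TPM at 16 h (log2 difference 0.48, SE 0.035, padj 1.30e-11), short of the fold threshold here and called higher with either other scaling. Of 18 tested genes of glucose entry and glycolysis 4 were called higher and 2 lower (median 0.33, 10 and 1 with ERCC scaling, 8 and 1 with median-centring). In pyruvate entry, the TCA cycle and the shuttles 2 of 37 were called higher, the aspartate aminotransferase Got1 (0.90 ± 0.032) and the isocitrate dehydrogenase Idh1 (0.80 ± 0.050), and 2 lower, Pdk2 (−0.74 ± 0.057) and Gpd2 (−0.73 ± 0.061), at a median of 0.021. Neither fall was called with ERCC scaling or median-centring. The share of this list was 5.41% in each direction, beside 3.53% of all tested genes higher and 8.28% lower.

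Txnip had the largest fall of all tested genes. It encodes an arrestin-domain protein that inhibits thioredoxin and glucose uptake, and it measured 329 and 312 TPM in CON and 33.1 and 32.8 TPM at 16 h, 9.73-fold lower (log2 difference −3.24, SE 0.084, padj 3.86e-20). The fall held on every scale. Arrdc4, its closest relative, measured 197 and 179.8 TPM in CON and 87.9 and 93.3 TPM at 16 h (log2 difference −1.05, SE 0.067, padj 1.56e-12). Arrdc3, another arrestin-domain gene, measured 12.9 and 12.1 TPM in CON and 4.39 and 4.70 TPM at 16 h (log2 difference −1.28, SE 0.089, padj 6.21e-12). Both were called on all 3 scales. Pklr, pyruvate kinase of the liver and beta cell and a target of the glucose-responsive factor ChREBP, had a log2 difference of −0.87 ± 0.042 and was not called with ERCC scaling. Of 13 tested genes of this list none was called higher and 7 lower (median −0.67), of which 3 were called with ERCC scaling and 5 with median-centring. The ChREBP partner Mlx and the thioredoxin gene Txn1 had log2 differences of 0.16 and 0.098 and were not called.

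The E-box CACGTG, the core of the sites that ChREBP with Mlx recognises in pairs, is shown in capitals in the promoter of Arrdc4.
Arrdc4, chr1:131793585-131793614 (−): aaacggcctgtgCACGTGcactctggtgtc

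It was in 36.4% of the 11 windows of this list and in 9.96% of those of all tested genes, 8.70% of genes called higher and 9.33% of genes called lower.

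The other large falls were of genes with varied roles. Gas7, a cytoskeletal protein, measured 17.8 and 17.7 TPM in CON and 2.56 and 2.74 TPM at 16 h (log2 difference −2.36, SE 0.077, padj 3.57e-18). Prok2, the secreted ligand prokineticin 2, measured 18.7 and 20.8 TPM in CON and 3.10 and 3.79 TPM at 16 h (log2 difference −2.23, SE 0.19, padj 1.91e-10). Hspa12a, a distant member of the Hsp70 family, measured 39.4 and 37.8 TPM in CON and 8.52 and 8.64 TPM at 16 h (log2 difference −2.05, SE 0.065, padj 2.55e-18). In all 3 both 16 h libraries lay below both CON libraries, but 84.1% of all tested genes had no overlap either. Slc2a4, the insulin-regulated glucose transporter GLUT4, measured 16.4 and 16.2 TPM in CON and 4.60 and 4.113 TPM at 16 h (log2 difference −1.69, SE 0.11, padj 3.74e-12). Selenop, a selenium transport protein, measured 29.0 and 29.5 TPM in CON and 8.96 and 7.51 TPM at 16 h (log2 difference −1.72, SE 0.088, padj 2.34e-14). Tnfsf10, the death ligand TRAIL, measured 18.5 and 13.6 TPM in CON and 3.26 and 4.87 TPM at 16 h (log2 difference −1.75, SE 0.15, padj 3.11e-10). Lingo4, Fstl4, Pgm5, Phkg1, Dpysl3, Nrgn, Blnk and Tm6sf2 complete the 15 largest falls among genes above 10 TPM, with log2 differences from −2.13 to −1.69. All 15 were also called with ERCC scaling and with median-centring.

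In amount of RNA the largest losses were of abundant genes that changed little. Krt8, a keratin, measured 2804 and 2842 TPM in CON and 1896 and 1894 TPM at 16 h (log2 difference −0.57, SE 0.035, padj 5.09e-13) and was not called. Tff3, a trefoil factor, measured 1402 and 1456 TPM in CON and 788 and 777 TPM at 16 h (log2 difference −0.87, SE 0.040, padj 2.92e-15) and was called lower, though not with ERCC scaling. Translation genes such as Rplp0, Eef1a1, Eef2 and Rps2 stood at log2 differences of −0.24 to −0.34, were not called, and have many near-identical copies in the genome, so their counts are uncertain.

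Early response genes were mostly back near CON at 16 h. Nr4a1, an orphan nuclear receptor, measured 17.8 ± 0.791 TPM in CON, 582 ± 70.1 TPM at 1 h, 54.1 ± 2.92 TPM at 8 h and 21.8 ± 0.515 TPM at 16 h (SD, n = 2 each), and Fos, an AP-1 subunit, averaged 2.04, 46.1, 6.92 and 2.28 TPM in the same order. Neither was called at 16 h. Crem, whose short forms repress CRE genes, was still called higher at 16 h, with 11.7 and 10.6 TPM in CON and 20.2 and 19.3 TPM at 16 h (log2 difference 0.77, SE 0.081, padj 1.14e-08) after 179 ± 9.56 TPM at 1 h. Ppargc1a, a coactivator gene, measured 3.29 and 2.46 TPM in CON and 10.1 and 12.3 TPM at 16 h (log2 difference 1.66, SE 0.17, padj 4.52e-09). Irs2, an insulin receptor substrate, measured 39.2 and 36.8 TPM in CON and 64.7 and 71.3 TPM at 16 h (log2 difference 0.82, SE 0.054, padj 2.37e-12). Of 24 CREB factors and cAMP feedback genes 5 were called higher and 1 lower (median −0.075), the lower gene Prkacb, a catalytic subunit of protein kinase A, only on the TPM scale. Of 19 AP-1 and immediate early factors 2 were called higher, Maff (1.25 ± 0.087) and Fosl2 (1.48 ± 0.081), and 2 lower, Myc (−0.87 ± 0.047) and Ier5 (−0.78 ± 0.079), neither with ERCC scaling, at a median of 0.16. Pde1c and Pde10a, phosphodiesterases that break down cyclic nucleotides, rose by 1.00 ± 0.060 and 0.83 ± 0.086, and 3 of 18 phosphodiesterases were called higher and 2 lower, Pde5a and Pde7a (median 0.28; 1 lower with ERCC scaling, 0 with median-centring).

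**Figure D4:**
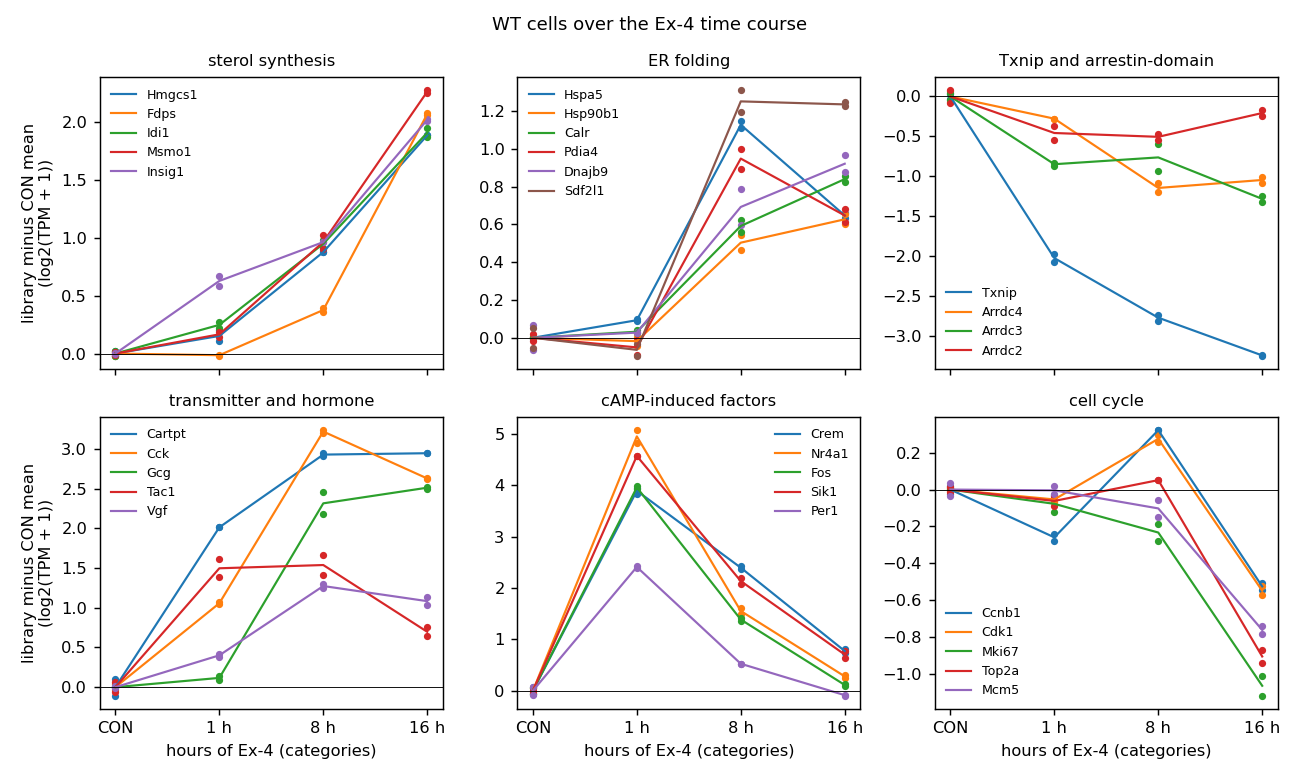
Log2(TPM + 1) of each library minus the WT CON mean (vertical axis) in CON and after 1, 8 and 16 h of Ex-4 (horizontal axis, categories not to scale in time) for genes of 6 groups, with 1 point per library and lines through the means of 2. Sterol genes climb up to 16 h, ER folding genes are up by 8 h, cAMP-induced factors peak at 1 h, Txnip is lower at each later time, and cell cycle genes lie below CON at 16 h.

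Cell cycle genes were lower, by a count that depended on the scale. Mki67, a proliferation marker, measured 72.6 and 72.8 TPM in CON and 32.9 and 35.5 TPM at 16 h (log2 difference −1.07, SE 0.055, padj 3.17e-14). Ccna2, cyclin A2, measured 201 and 197 TPM in CON and 100.2 and 100.4 TPM at 16 h (log2 difference −0.98, SE 0.040, padj 2.41e-16). Top2a, a topoisomerase of dividing cells, measured 223 and 219 TPM in CON and 115 and 121 TPM at 16 h (log2 difference −0.91, SE 0.046, padj 2.19e-14), a fall not called with ERCC scaling. Of 37 tested genes 14 were called lower and 1 higher (median −0.54), with 3 lower under ERCC scaling and 9 under median-centring. Mki67, Ccna2 and Bub1b were the 3 called lower on all scales, and Ccnd1, cyclin D1, was the gene called higher, from 0.430 ± 0.0990 TPM to 1.49 ± 0.0891 TPM.

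Clock genes were called lower more often than called higher. Of 16 clock genes 1 was called higher and 5 lower, beside 3.53% and 8.28% of all genes (median −0.14; 1 lower with ERCC scaling and 3 with median-centring). Per3, a period gene of the feedback loop, had the largest fall, with 5.42 and 4.41 TPM in CON and 1.56 and 1.51 TPM at 16 h (log2 difference −1.22, SE 0.10, padj 2.17e-10), and was called on all 3 scales. The other values were −0.88 ± 0.064 for the clock output factor Tef and −0.80 ± 0.072 for the repressor Cry1, neither called with ERCC scaling, and 0.68 ± 0.056 for the activator Arntl (BMAL1), the gene that rose. Of 23 NRF2 targets, which make reducing power and antioxidants, 2 rose, Pgd and Srxn1 (0.64 ± 0.042 and 0.61 ± 0.052), and the call of Srxn1 was lost without CON replicate 2 (0.55). The medians were 0.047 for that list, −0.12 for heat shock proteins, −0.22 for the BCL2 family and −0.16 for insulin signalling. Of 18 heat shock proteins outside the ER only Hspa12a was called, and of 12 BCL2 family genes only the death-promoting Bcl2l11 (−0.63 ± 0.060), whose call was lost with both other scalings and without CON replicate 1 (−0.58) or 16 h replicate 1 (−0.55). Of 23 insulin signalling genes 2 rose, Irs2 and Igf1r, and 1 was lower, and the call of Igf1r was lost without CON replicate 2 (0.50) or 16 h replicate 2 (0.51). Of 75 cytosolic ribosomal proteins 1 was called, Rps18, lower (1917 and 2004 TPM in CON and 1341 and 1262 TPM at 16 h, log2 difference −0.59, SE 0.044, padj 2.89e-11), not with the other scalings or without CON replicate 2 (−0.56) or 16 h replicate 2 (−0.55), and the median was −0.17, close to that of all genes. None of 67 mitochondrial ribosomal proteins and none of 71 respiratory chain subunits was called on the TPM scale (medians −0.100 and 0.084), and 1 of 37 proteasome subunits was, the immune subunit Psmb9 (−0.68 ± 0.083, lost with both other scalings), at a median of 0.032. With ERCC scaling 8 respiratory chain, 1 mitochondrial ribosomal and 0 proteasome genes were called higher. Of 30 Mediator subunits 3 were called lower (10.0%, beside 8.28% of all tested genes), Cdk19, Med23 and Med30 (−0.90 ± 0.055, −0.63 ± 0.050 and −0.59 ± 0.053). None of them was called with ERCC scaling (list median −0.29), and the calls of Med23 and Med30 were lost without CON replicate 1 (−0.58) and CON replicate 2 (−0.54). Med14 measured 21.5 and 20.3 TPM in CON and 17.2 and 19.5 TPM at 16 h and was not called (log2 difference −0.18, SE 0.067, padj 0.0215).

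Against 8 h of Ex-4, 214 genes (2.08%) were called higher at 16 h and 359 (3.49%) lower. This split was 495 and 183 with ERCC scaling and 303 and 273 with median-centring, and the median difference of all genes was −0.058, 0.11 and 0.0090 on the 3 scales. The contrast shares its 16 h libraries with the one above. Cholesterol synthesis was still going up: 18 of 20 enzymes were called higher at 16 h than at 8 h and none lower. Hmgcs1 went from 147 ± 0.269 TPM to 297 ± 0.443 TPM (log2 1.01, SE 0.054, padj 1.79e-13), and Insig1 from 133 ± 0.150 TPM to 278 ± 1.71 TPM (log2 1.06, SE 0.043, padj 1.18e-15). Of 26 ER chaperones none was called higher at 16 h than at 8 h and 1 lower, Creld2. Hspa5 measured 1639 ± 24.1 TPM against 2287 ± 40.9 TPM at 8 h, short of the fold threshold (log2 −0.48, SE 0.046, padj 4.49e-09). Crem fell between these times from 62.8 ± 1.68 TPM to 19.8 ± 0.603 TPM (log2 −1.62, SE 0.081, padj 4.80e-14). Gcg, Cartpt and Txnip were not called between these times. Gcg had 838 ± 113 TPM at 8 h against 956 ± 13.4 TPM (log2 0.20, SE 0.068, padj 0.0187). Cartpt had 70.2 ± 1.27 TPM against 71.1 ± 0.153 TPM (log2 0.017, SE 0.071, padj 0.856). Txnip had 46.1 ± 1.63 TPM against 32.9 ± 0.169 TPM (log2 −0.47, SE 0.084, padj 5.17e-05). In the cell cycle list 18 of 37 genes were lower at 16 h than at 8 h and none higher (12 with ERCC scaling), where Mki67 went from 61.7 ± 2.70 TPM to 34.2 ± 1.83 TPM (log2 −0.83, SE 0.055, padj 7.97e-12). Fatty acid synthesis had 5 of 16 higher, and the AP-1 list 5 of 19 lower.

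Against 16 h of FSK, 1176 genes (11.4%) were higher with Ex-4 and 749 (7.29%) lower, and the contrast again shares the 16 h Ex-4 libraries. Each agent was used at 1 dose, 10 nM of Ex-4 and 10 µM of FSK. Of 20 cholesterol enzymes none was higher with Ex-4 and 3 were lower, Idi1, Cyp51 and Msmo1. Fdps measured 1259 ± 10.1 TPM with Ex-4 and 1858 ± 23.4 TPM with FSK, short of the fold threshold here and past it with either other scaling (log2 −0.56, SE 0.030, padj 1.83e-14). ER chaperones differed in 4 of 26, 2 in each direction: Dnajb9 and Dnajc3 were lower with Ex-4, and Ero1b and Sil1 higher. The AP-1 list had 15 of 19 genes lower with Ex-4, the ATF4 list 16 of 21 and the regulators of the unfolded protein response 9 of 17. In the other direction, 13 of 25 ion channel genes, 10 of 19 transcription factors and 9 of 18 incretin receptor and cyclase genes were higher with Ex-4. Ins1 measured 58372 ± 1987 TPM with FSK against 58267 ± 694 TPM with Ex-4 (log2 −0.0022, SE 0.055, padj 0.975). Glp1r measured 83.5 ± 0.884 TPM against 102 ± 3.12 TPM and was not called (log2 0.29, SE 0.038, padj 2.80e-07). Txnip went further down with FSK, to 2.12 ± 0.297 TPM against 32.9 ± 0.169 TPM (log2 3.44, SE 0.084, padj 4.44e-21). Of 10 neuropeptide and gut hormone genes 4 were lower with Ex-4, Tac1 (−2.86), Cck (−1.35), Bdnf (−1.26) and Calca (−0.79), and 1 was higher, the secretin gene Sct (0.84), all 5 on all 3 scales. Cartpt and Gcg were not called: Cartpt measured 86.0 ± 6.90 TPM with FSK (log2 −0.27, SE 0.071, padj 0.00171) and Gcg 785 ± 33.6 TPM (log2 0.29, SE 0.068, padj 7.00e-04).

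The same exposure in S983A cells asks how far the late response depends on that serine. The difference of the responses (S983A minus WT, an interaction term) was called positive for 558 genes (5.43%) and negative for 186 (1.81%), and this split turned with the scale, to 138 and 1703 with ERCC scaling and 330 and 378 with median-centring. The median of all genes was 0.087, −0.33 and −0.043 on these scales. WT values enter it, so it is not independent of the values above, and the difference of genotypes cannot be told apart from that of clonal lines. ERCC RNA took 0.955% and 0.819% of fragments in the 2 S983A 16 h Ex-4 libraries and 0.836% and 0.818% in S983A CON. The counts with ERCC scaling rest on these unequal shares.

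Cholesterol enzymes rose less in S983A cells, with a negative difference for 11 of 20 and a positive one for none (0 and 19 with ERCC scaling, 0 and 15 with median-centring). Fdps went from 489.9 ± 3.18 TPM in S983A CON to 999 ± 23.2 TPM after Ex-4, a log2 change of 1.03 beside 2.07 in WT (log2 −1.04, SE 0.042, padj 3.65e-15). Hmgcs1 went from 85.0 ± 7.25 TPM to 150.0 ± 7.21 TPM (log2 −1.07, SE 0.077, padj 6.21e-11). In WT CON, Fdps measured 296 and 303 TPM and Hmgcs1 80.8 and 78.6 TPM. For Fdps the difference of responses thus also holds a higher CON level in S983A. The study reports that basal expression of cholesterol genes was mostly raised in the mutant. The differences for Pam and Pcsk2 of the granule were −0.71 and −0.70, and 4 of 17 granule genes had a negative and 1 a positive difference (8 and 0 with ERCC scaling, 7 and 0 with median-centring). Of 10 neuropeptide and gut hormone genes 3 had a positive difference, Tac1 (1.54), Calca (0.73) and Bdnf (0.68), and 2 a negative one, Cartpt and Cck (1 and 3 with ERCC scaling, 2 and 2 with median-centring). Cartpt had a smaller rise (log2 −0.94, SE 0.10, padj 6.18e-08), from 11.3 ± 0.453 TPM to 48.3 ± 1.24 TPM, while the response of Gcg had no called difference, from 6.32 ± 0.328 TPM to 44.5 ± 1.49 TPM (log2 0.12, SE 0.097, padj 0.312), at a baseline far below the 167 TPM of WT CON. ER chaperones had 1 negative difference among 26, that of Sdf2l1 (−0.92), but 15 with ERCC scaling and 2 with median-centring.

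Genes of stress responses differed in the opposite direction. In brackets below, as above, log2 values are differences of the responses (S983A minus WT). Of 21 ATF4 targets 15 had a positive difference and none a negative one (9 and 0 with ERCC scaling). The regulators of the unfolded protein response had 8 positive differences of 17 and no negative one (2 positive and 4 negative with ERCC scaling, 5 and 2 with median-centring). Trib3 rose from 7.89 ± 0.538 TPM to 86.7 ± 0.380 TPM in S983A cells (log2 1.596, SE 0.13, padj 8.82e-10), and Chac1 from 12.5 ± 0.303 TPM to 92.7 ± 2.70 TPM (log2 1.21, SE 0.12, padj 2.86e-08). Of 19 AP-1 and immediate early genes 9 had a positive difference and none a negative one (4 and 2 with ERCC scaling). Crem rose by 2.755 on the log2 scale in S983A cells and by 0.773 in WT (difference 1.98, SE 0.12, padj 1.80e-12). Its levels at 16 h lay closer, at 37.3 ± 2.04 TPM in S983A and 19.8 ± 0.603 TPM in WT. The difference of responses therefore also holds a difference between the CON levels. Txnip fell in both genotypes, to 5.21 ± 1.02 TPM from 54.4 ± 2.09 TPM in S983A (log2 0.077, SE 0.12, padj 0.636).

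**Figure D5:**
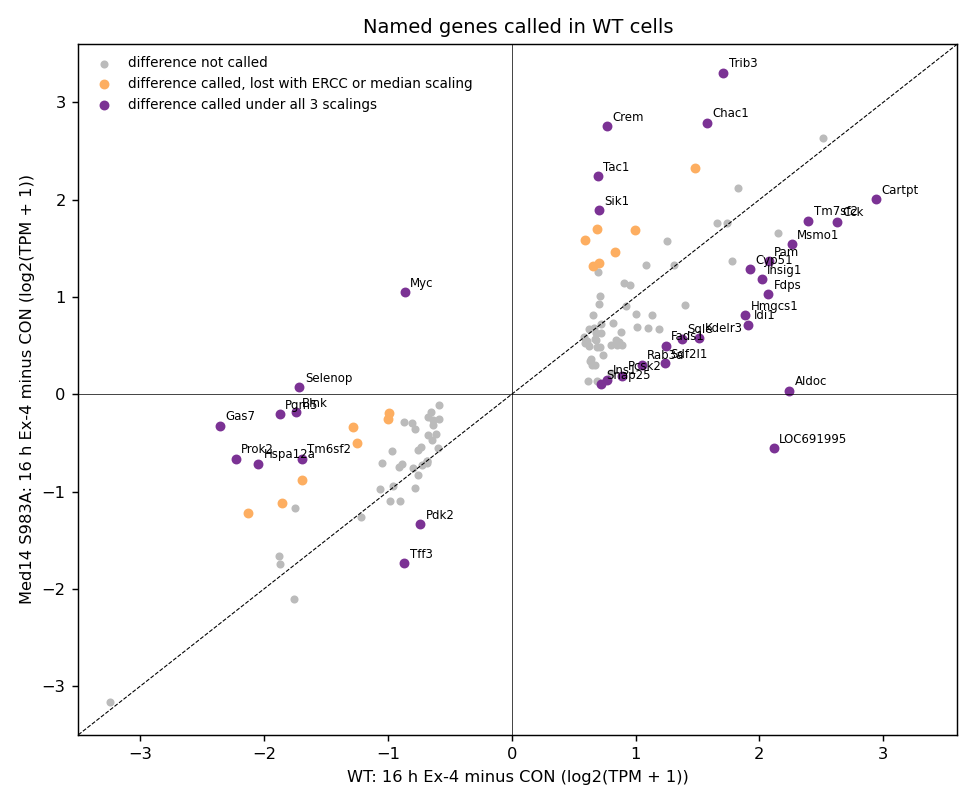
Log2 difference between 16 h Ex-4 and CON in Med14 S983A cells (vertical axis) against that in WT cells (horizontal axis) for the named genes called in WT, with a dashed line of equal response. Grey points have no called difference of responses, orange points lose the call with ERCC scaling or median-centring, and purple points keep it on all 3 scales. Sterol genes such as Fdps and Hmgcs1 lie under the line at the right.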

How the data were processed

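Total RNA of INS-1 cells was sequenced as stranded paired-end libraries. The authors aligned reads with STAR 2.5.3a to rn6 plus ERCC sequences and deposited TPM per RefSeq transcript (exons, HOMER 4.11.1). They also deposited read counts of the 92 ERCC sequences (QoRTs), and their own test was DESeq2 1.24.0 with ERCC size factors. Their TPM is a share of each library, so it hides a change in total mRNA, and ERCC scaling refers to mRNA per mass of RNA, not per cell.

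Of 19223 lines, 1676 transcripts were dropped to keep the one with the highest mean TPM per symbol, which left 17455 symbols without ERCC. The 10275 genes that averaged 1 TPM or more across the 28 libraries were fitted in limma 3.58.1 (R 4.3.3) on log2(TPM + 1), with a mean for each of 14 groups, 14 residual degrees of freedom and a trended prior, and p-values were Benjamini-Hochberg adjusted within a contrast. A fold change on this scale understates the change of low genes. Whole reads were recovered from TPM, transcript length and ERCC counts for edgeR 4.0.16 and DESeq2 1.42.0. Of the 124685 values checked, 100% were whole within 0.05 reads plus the rounding of TPM, where chance gives 22.6%. Other alternatives were ERCC scaling, median-centring, a pseudocount of 0.1, no filter or 5 TPM, no fold minimum, each library left out, a fit to the libraries of the contrast, and a replicate block. The fit was tested on simulated data.

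Members and gene lists were chosen with earlier results of these data known. Genes were named by rule: the 15 largest rises and falls above 10 TPM, up to 4 called members per list above 5 TPM, the 10 largest gains and losses of TPM, cell type markers, Med14, Glp1r, and uncalled list members where a pathway step called for them. Sqle, Dhcr7, Hspa5, Hsp90b1, Atf4, Tac1, Adcy1, Prkacb, Pde5a, Fosl2, Ccnd1, Creld2, Ero1b, Sil1, Per3, Bdnf, Calca and Sct were named outside the rule, after their values were seen. Some genes that the rule or the lists hold are counted but not reported here. Promoter windows and coordinates printed with sequences are RefSeq, GRCr8, and 8421 tested genes had a window. The CCAAT box was added to the motif search after the data had been seen.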

Additional observations from a re-analysis of the deposited data

Results flagged for a closer look

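The 49 genes below were singled out because their 16 h Ex-4 response differed between Med14 S983A and WT cells in a test of the difference itself (limma interaction, padj under 0.05 and above 1.5-fold), among the named genes called in WT. The value in brackets is the log2 response of S983A minus that of WT, so a negative value is a smaller rise or a larger fall in S983A. Every gene rests on 2 libraries in each of 4 groups, and genotype cannot be told apart from clonal line.

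Rises were smaller in S983A for the sterol genes Tm7sf2 (−0.61), Msmo1 (−0.72), Fdps (−1.04), Insig1 (−0.84), Cyp51 (−0.64), Idi1 (−1.19), Hmgcs1 (−1.07) and Sqle (−0.81) and the desaturase Fads1 (−0.75). They were smaller too for the peptide and granule genes Cartpt (−0.94), Cck (−0.85), Pam (−0.71), Pcsk2 (−0.70) and Ins1 (−0.62), the exocytosis genes Rab3a (−0.74) and Snap25 (−0.61), the ER genes Sdf2l1 (−0.92) and Kdelr3 (−0.93), and Aldoc (−2.21) and LOC691995 (−2.67), of which LOC691995 did not go up in S983A. Rises were larger in S983A for the stress genes Trib3 (1.596), Chac1 (1.21), Ddit3 (1.01) and Atf4 (0.99), the cAMP-induced Crem (1.98), Sik1 (1.19) and Fosl2 (0.84), the phosphodiesterases Pde1c (0.69) and Pde10a (0.63), and Etv1 (0.65), Chgb (0.67) and Tac1 (1.54).

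Falls were smaller in S983A for Gas7 (2.04), Prok2 (1.56), Lingo4 (0.92), Hspa12a (1.33), Pgm5 (1.67), Dpysl3 (0.73), Blnk (1.55), Tm6sf2 (1.03) and Slc2a4 (0.81), and for Abca1 (0.75), Pfkfb3 (0.80), Arrdc3 (0.94) and Adcy1 (0.74). Selenop (1.79), lower in WT, did not fall in S983A, where its log2 change was 0.071. In S983A CON the levels of Gas7, Prok2, Pgm5, Blnk and Selenop lay under 1 TPM before Ex-4. A fall from there cannot reach 1 on the log2(TPM + 1) scale, while the WT values of these genes were −2.36 to −1.715. Their differences were thus bound to pass the 1.5-fold threshold and cannot show a weaker response to Ex-4. Myc, lower in WT, was higher in S983A (1.91). Falls were larger in S983A for Pdk2 (−0.59) and Tff3 (−0.87). The differences of Pde1c, Pde10a, Etv1 and Chgb were not called with ERCC scaling or median-centring, and those of Lingo4, Dpysl3, Slc2a4, Abca1, Ddit3, Pfkfb3, Arrdc3, Atf4, Adcy1 and Fosl2 not with ERCC scaling. The other 35 were called on all 3 scales, among them Gas7, Prok2, Pgm5, Blnk and Selenop with their low S983A CON levels.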

How the results depend on the processing

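The counts depended on the fold minimum and on the scaling. Against the 363 genes called higher and 851 lower, ERCC scaling gave 1002 and 268, median-centring 665 and 407, and DESeq2 with ERCC size factors 1134 and 363, while edgeR and DESeq2 called 668 and 726 higher (633 and 583 lower). Without the fold minimum 1677 were higher and 5380 lower, since small differences then count. The 573 calls against 8 h became 902 with DESeq2 and ERCC size factors and 5313 without the fold minimum, the 1925 against FSK 7023 without it, and the 744 S983A differences 1841 with ERCC scaling, 1933 with DESeq2 and ERCC size factors and 4317 without the fold minimum. The log2 differences of uncalled abundant genes turned positive with ERCC scaling and DESeq2 with ERCC size factors: Rplp0 0.0944 and 0.0823, Ins2 0.0488 and 0.0379, Eef2 0.0986 and 0.0859, Rps2 0.0161 and 0.0056, and Med14 0.14 and 0.14 (0.0097 with median-centring). A pseudocount of 0.1, no filter or a filter at 5 TPM, and a fit to the libraries of the contrast alone kept each count within 1.5 times. Leaving out 1 library gave 347 to 395 genes higher, 776 to 955 lower, 562 to 640 against 8 h, 1907 to 1954 against FSK and 691 to 871 S983A differences. Of 134 named genes with a call, 100 had the same call under all alternatives. The labels give each group replicate 1 and 2, but these share only a number: the deviations of WT CON and 16 h Ex-4 correlated at −0.24 over genes. With the replicate number as a block the counts were 363 and 851, 574, 1925 and 744. Left-out libraries gave −0.0483 to 0.14 for Bdnf and −0.13 to 0.13 for Sct, both uncalled. A crossed pairing, added after seeing the data, gave 364 and 853. With 2 libraries a group, a library that stands apart cannot be identified, and the whole-library scale cannot be settled from TPM.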
